A study of Mus musculus with 9 samples.

Results

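The 6 genes described here were read from the deposited expression table of newborn mouse cortex. They are the neurotrophins Bdnf and Ntf3, the Trk receptors Ntrk2 and Ntrk3, the neurotrophin receptor Ngfr (p75) and its sorting partner Sort1. The genes were chosen by symbol, and each matched 1 of the 24624 genes in the table. The set was selected on the readout of Ngfr, which was known to be low in Fezf2-/- cortex and higher with Fezf2-EnR, so the Ngfr differences between genotypes are described here without a test. The other 5 members were tested with all genes.

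RNA was sequenced from both cortical hemispheres of 1 mouse per library at postnatal day 0 (P0). Fezf2+/+ (wild type) had 3 libraries, bc201 and bc202 from litter m1 and bc203 from litter m2. Fezf2-/- had 4 libraries, bc205 and bc206 from litter m1 and bc204 and bc207 from litter m3. These mice lack FEZF2, a zinc-finger transcription factor of deep-layer projection neurons, and their null allele carries a knock-in of human placental alkaline phosphatase (PLAP). Fezf2-/-; Fezf2-EnR had 2 libraries, bc208 from litter m3 and bc209 from litter m2. These mice have the same null allele and in addition a transgene on a bacterial artificial chromosome (BAC), in which the sequence around Fezf2 drives the FEZF2 DNA-binding domain joined to the repressor domain of engrailed. The transgene is expressed where its own Fezf2 sequences are active, and the mice are described as a single transgenic line. The comparisons ask what the loss of Fezf2 does to expression in the cortex, and what a form of FEZF2 that can only repress restores.

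Neurotrophins are secreted as precursors, cut to mature ligands, and bind 2 kinds of receptor. Each Trk receptor is a tyrosine kinase with preferred ligands. TrkB, encoded by Ntrk2, binds BDNF and NT-4, and TrkC, encoded by Ntrk3, binds NT-3, the product of Ntf3. p75, encoded by Ngfr, belongs to the tumour necrosis factor receptor family and binds all neurotrophins, and together with sortilin, encoded by Sort1, it binds their precursors. In the developing cortex p75 is known as a marker of subplate neurons, an early-born population beneath layer 6.

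The table holds read counts divided by a size factor of each library, called normalized counts below. The libraries held 18716575 to 25127623 reads counted to genes. Fezf2 itself lay between 979 and 1232 normalized counts in Fezf2+/+, between 193 and 242 in Fezf2-/-, and at 907 and 1001 in Fezf2-/-; Fezf2-EnR, where the table does not separate the transgene from the endogenous gene. The sex-linked transcripts Xist and Ddx3y showed that all 4 Fezf2-/- libraries came from males (Xist at most 3.27, Ddx3y at least 1211) and both Fezf2-/-; Fezf2-EnR libraries from females (Xist at least 7895, Ddx3y 0), so that sex and the transgene cannot be told apart between these 2 groups. Fezf2+/+ held 1 female library, bc201, and 2 male libraries. In Fezf2-/- bc204, the summed level of 6 striatal neuron markers was 2943 normalized counts, against 673 to 1066 in the other Fezf2-/- libraries and 1272 to 1492 in Fezf2+/+, and in bc208 it was 2169. Pan-cortical glutamatergic markers summed to 39624 or more in every library.

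Ngfr (ENSMUSG00000000120.6) was the member that differed most. The gene lies on the minus strand of chr11:95568818-95587735 (GRCm38, GENCODE M21). Its normalized counts were 340.47, 390.32 and 337.25 in Fezf2+/+, 50.22, 56.66, 54.21 and 73.09 in Fezf2-/- (bc204 to bc207), and 296.69 and 417.39 in Fezf2-/-; Fezf2-EnR (bc208 and bc209). Every Fezf2-/- library was far below every library of the other groups, while the libraries of Fezf2+/+ and Fezf2-/-; Fezf2-EnR overlapped. Fezf2+/+ averaged 356 ± 29.8 (SD, n = 3). The Fezf2-/- mean was 58.5 ± 10.1 (SD, n = 4), or 16.4% of the Fezf2+/+ level. With Fezf2-EnR the mean was 357 ± 85.3 (SD, n = 2), 100.3% of the Fezf2+/+ level. These values rest on 50 to 88 reads per library in Fezf2-/- and on 298 to 403 reads in the other libraries. The level was similar in the female Fezf2+/+ library, 340.47, and in the male ones, 337.25 and 390.32.

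On the log2(normalized count + 1) scale, Ngfr was 2.60 lower in Fezf2-/- than in Fezf2+/+, as a log2 fold change of -2.60 (standard error 0.16, 95% interval -2.94 to -2.25). Between Fezf2-/-; Fezf2-EnR and Fezf2-/- it was 2.58 (standard error 0.18, 95% interval 2.19 to 2.97). The difference between Fezf2-/-; Fezf2-EnR and Fezf2+/+ was -0.01, with a 95% interval of -0.43 to 0.40. Ngfr was chosen for its low level in Fezf2-/- and its return with Fezf2-EnR. These intervals make no allowance for that choice and are not a test. Within litter m1 the log2 difference of Fezf2-/- from Fezf2+/+ was -2.70, and within litter m3 that of Fezf2-/-; Fezf2-EnR from Fezf2-/- was 2.27. In litter m2, which held 1 library each, Fezf2-/-; Fezf2-EnR was 0.31 above Fezf2+/+. The 2 Fezf2-EnR libraries differed from each other, with bc208 0.26 below and bc209 0.23 above the Fezf2+/+ mean. In whole tissue, fewer cells that express a gene and less RNA of it per cell cannot be told apart.

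**Figure D1:**
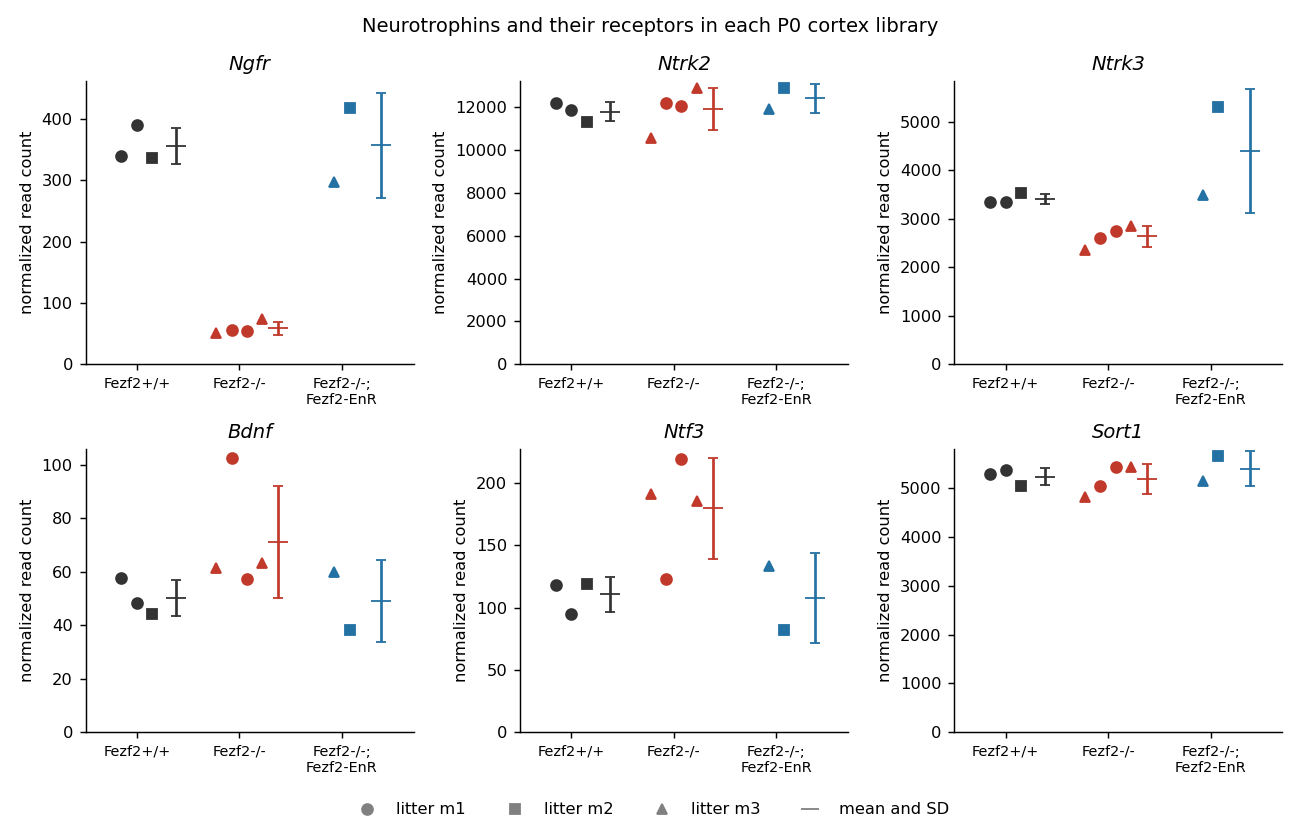
Normalized read counts (y axis, from 0) of the 6 members in each library, by genotype. Points are libraries, with the litter as the shape, and the bar beside them is the mean and SD. Ngfr lies between 50.22 and 73.09 in Fezf2-/- and at 296.69 or more elsewhere, Ntrk3 is lowest and Ntf3 highest in Fezf2-/-, and Ntrk2 and Sort1 lie at like levels in all groups.

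The promoter of Ngfr is shown as that of the member that differed most. Promoters of the genes described next were not examined, and any part of the promoter in the Ngfr levels was not tested. The window covers the bases 250 to 51 before the RefSeq start of the gene (GRCm38.p6, chr11:95587749-95587948, minus strand, 5′ to 3′), with GC boxes (GGGCGG on either strand) in capitals. The corresponding window of the downstream start of Ntf3 (chr6:126165011-126165210, minus strand) stands below it.
Ngfr: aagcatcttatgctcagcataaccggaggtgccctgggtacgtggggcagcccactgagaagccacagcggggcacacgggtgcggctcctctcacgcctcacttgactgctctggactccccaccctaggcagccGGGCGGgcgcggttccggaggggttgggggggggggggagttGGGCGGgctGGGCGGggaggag
Ntf3: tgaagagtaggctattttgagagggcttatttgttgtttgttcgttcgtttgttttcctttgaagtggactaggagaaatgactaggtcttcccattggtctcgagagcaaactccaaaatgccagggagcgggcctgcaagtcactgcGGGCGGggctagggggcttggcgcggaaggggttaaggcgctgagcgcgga
The Ngfr window held 3 GC boxes, 13 CpG dinucleotides and 70.0% G or C, and no TATA box (TATAAA on either strand). The Ntf3 window held 1 GC box and 11 CpG dinucleotides. Of 32851 promoter windows of the same length, 24.6% held a GC box and 9.1% a TATA box, and the median window held 4 CpG dinucleotides and 51.5% G or C. The matching window of Ntrk2 held 0 GC boxes and 14 CpG dinucleotides, and that of the upstream start of Ntf3 0 and 8. Windows of 7 starts of Bdnf held 0 to 1 GC box and 0 to 12 CpG dinucleotides each. A window rich in CpG was thus not particular to Ngfr.

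Likeness to Ngfr was measured over 12963 genes averaging 50 or more normalized counts. The 10 genes whose log2 levels followed Ngfr most closely over the 9 libraries had a Pearson r between 0.973 and 0.991. This is a description of the same libraries in which Ngfr was seen to differ, and points of 1 genotype share that genotype. In order of r they were Hs3st4, Nxph3, Nfe2l3, Tle4, Clic5, Tcerg1l, Fezf2, Zfpm2, Nxph4 and Adcyap1. Hs3st4 encodes a heparan sulfate sulfotransferase, Nxph3 and Nxph4 encode neurexophilins, Tle4 and Zfpm2 encode transcriptional co-regulators known from corticothalamic neurons, and Adcyap1 encodes the neuropeptide PACAP. Relative to the Fezf2+/+ mean, the Fezf2-/- mean was 25.4% for Hs3st4, 15.4% for Nxph3, 34.2% for Tle4, 36.7% for Nxph4 and 56.7% for Adcyap1. With Fezf2-EnR these genes stood at 87.2%, 87.6%, 117.5%, 81.4% and 99.4% of it. Ngfr at 16.4% and 100.3% was thus among the lowest of these genes in Fezf2-/- and close to Adcyap1 with Fezf2-EnR.

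**Figure D2:**
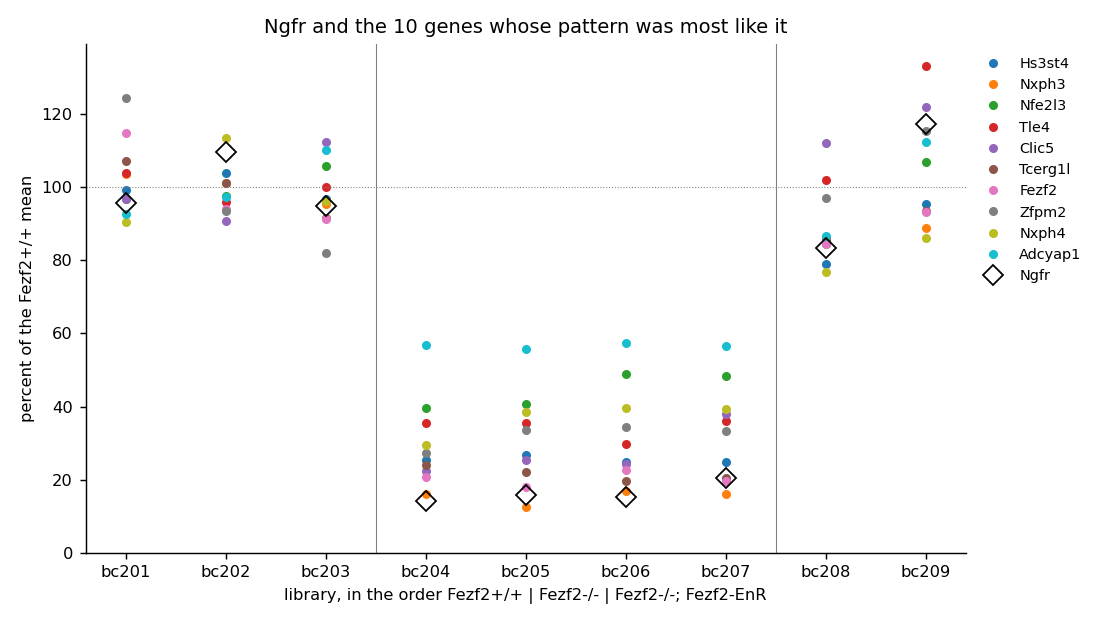
Levels of Ngfr (open diamonds) and of the 10 genes most like it (dots) in each library, as a percent of the Fezf2+/+ mean of each gene (y axis, from 0). In the 4 Fezf2-/- libraries in the middle Ngfr and the like genes are low, with Adcyap1 the highest at 56.7% on average. In the 2 Fezf2-EnR libraries on the right their means run from 81.4% (Nxph4) to 117.5% (Tle4) of the Fezf2+/+ mean, and single libraries spread wider.

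The subplate markers were examined beside Ngfr, as genes of a cell type in which it is known. Of the 7 markers, 3 fell and 1 rose in Fezf2-/- against Fezf2+/+ (limma, Benjamini-Hochberg adjusted p under 0.05 over 16197 genes, met by 0.858% of all genes), with a median log2 fold change of -0.39. Cplx3, a complexin of presynaptic terminals, fell from a mean of 98.6 to 12.1 normalized counts (log2 fold change -2.99, limma adjusted p = 0.00059). Ctgf, a secreted matrix-associated protein, fell from 379 to 145 (-1.40, limma adjusted p = 0.000716), and Nxph4 fell from 426 to 156 (-1.45, limma adjusted p = 0.000265). Nr4a2, a nuclear receptor, moved the other way and rose from 2243 to 3797 (0.75, limma adjusted p = 0.0248), a call lost with litter as a block (0.60, limma adjusted p = 0.0599) and without bc201, bc202, bc203 or bc206 (limma adjusted p = 0.0541 to 0.119). The remaining markers did not pass the test, with log2 fold changes of 0.66 for Moxd1, -0.39 for Lpar1 and 0.38 for St18. With Fezf2-EnR, Cplx3, Ctgf and Nxph4 rose against Fezf2-/- (log2 fold changes 2.60, 1.38 and 1.15, limma adjusted p at most 0.00564). Without bc209 these 3 calls were lost (1.35 for Ctgf, 2.80 for Cplx3 and 1.07 for Nxph4, limma adjusted p = 0.0632 to 0.1). The part of subplate cell number in the Ngfr levels was not tested.

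Markers of other cells known to carry p75 were also examined. The 4 markers of basal forebrain cholinergic neurons summed to 15.8 to 24.2 normalized counts in Fezf2+/+, 21.6 to 24.0 in Fezf2-/- other than bc204, which had 93.4, and 41.8 and 13.1 with Fezf2-EnR. Chat, the enzyme of acetylcholine synthesis, lay between 0 and 2.01 over all 9 libraries. Slc5a7, the choline transporter, was the 1 gene of that list with a mean high enough for the test. It had means of 13.9 in Fezf2+/+ and 23.5 in Fezf2-/-, whose libraries did not overlap, as for 13.0% of all genes (log2 fold change 0.66, limma adjusted p = 0.601), and of 17.8 with Fezf2-EnR. Slc18a3, the vesicular acetylcholine transporter, reached 19.08 and Lhx8, a factor of these neurons, 34.15. The 4 Schwann cell and neural crest markers in the table summed to 12.5 to 24.1 over all libraries, and among them Cdh19 lay between 0 and 2.19. The summed level of 6 meningeal fibroblast markers overlapped between the groups, at 174 to 308 in Fezf2+/+, 208 to 345 in Fezf2-/- and 183 and 358 with Fezf2-EnR. Lum, the matrix proteoglycan lumican, was the 1 gene of the 5 tested in that list to pass the test, lower in Fezf2-/- than in Fezf2+/+ (limma adjusted p = 0.0176) and higher with Fezf2-EnR than in Fezf2-/- (limma adjusted p = 0.0426). It had a mean of 19.5 in Fezf2+/+, 3.14 in Fezf2-/- and 19.0 with Fezf2-EnR. Summed pericyte markers overlapped too, at 2614 to 3751 in Fezf2+/+ and 3335 to 3791 in Fezf2-/-, and were at 3086 and 3198 with Fezf2-EnR, below the Fezf2-/- range. The part of these cells in the Ngfr levels was not tested.

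Ntrk3 (ENSMUSG00000059146.12, minus strand of chr7:78175959-78738012) was lowest in Fezf2-/-. Its normalized counts were 3346.43, 3357.17 and 3532.65 in Fezf2+/+, 2355.12, 2608.58, 2749.12 and 2852.27 in Fezf2-/-, and 3490.61 and 5303.70 in Fezf2-/-; Fezf2-EnR. All Fezf2-/- libraries were below all others. Between Fezf2-/- and Fezf2+/+ alone, the libraries did not overlap, in either direction, for 13.0% of genes tested. The Fezf2-/- mean, 2641 ± 215 (SD, n = 4), was 77.4% of the Fezf2+/+ mean of 3412 ± 105 (SD, n = 3). This difference did not pass the test (log2 fold change -0.37, standard error 0.12, 95% interval -0.64 to -0.11, limma adjusted p = 0.277). It passed when Fezf2-EnR libraries were left out of the fit (limma adjusted p = 0.0329), without bc208 or bc209 alone (limma adjusted p = 0.033), and in the 4 libraries of litter m1 (-0.32, limma adjusted p = 0.0354).

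With Fezf2-EnR, Ntrk3 rose against Fezf2-/- by a log2 fold change of 0.71 (standard error 0.14, 95% interval 0.40 to 1.01, limma adjusted p = 0.0471), a call made for 0.766% of all genes. No library overlapped between these groups, as for 24.6% of all genes. The size rests on bc209, whose level was 1.01 above the Fezf2-/- mean on the log2 scale, whereas bc208 was 0.41 above it. The call was lost without bc209 (limma adjusted p = 0.357) and without any 1 of the 7 Fezf2+/+ and Fezf2-/- libraries (limma adjusted p = 0.0628 to 0.124), with litter as a block (0.59, limma adjusted p = 0.0625), and in litter m3 alone (0.43, limma adjusted p = 0.678). Against Fezf2+/+, where 0.117% of all genes were called and 34.6% did not overlap, Ntrk3 was at 128.9% of the mean level, with overlapping libraries and a log2 fold change of 0.33 (95% interval 0.02 to 0.65, limma adjusted p = 0.241). Without bc208 this difference was 0.64 (limma adjusted p = 0.0234).

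**Figure D3:**
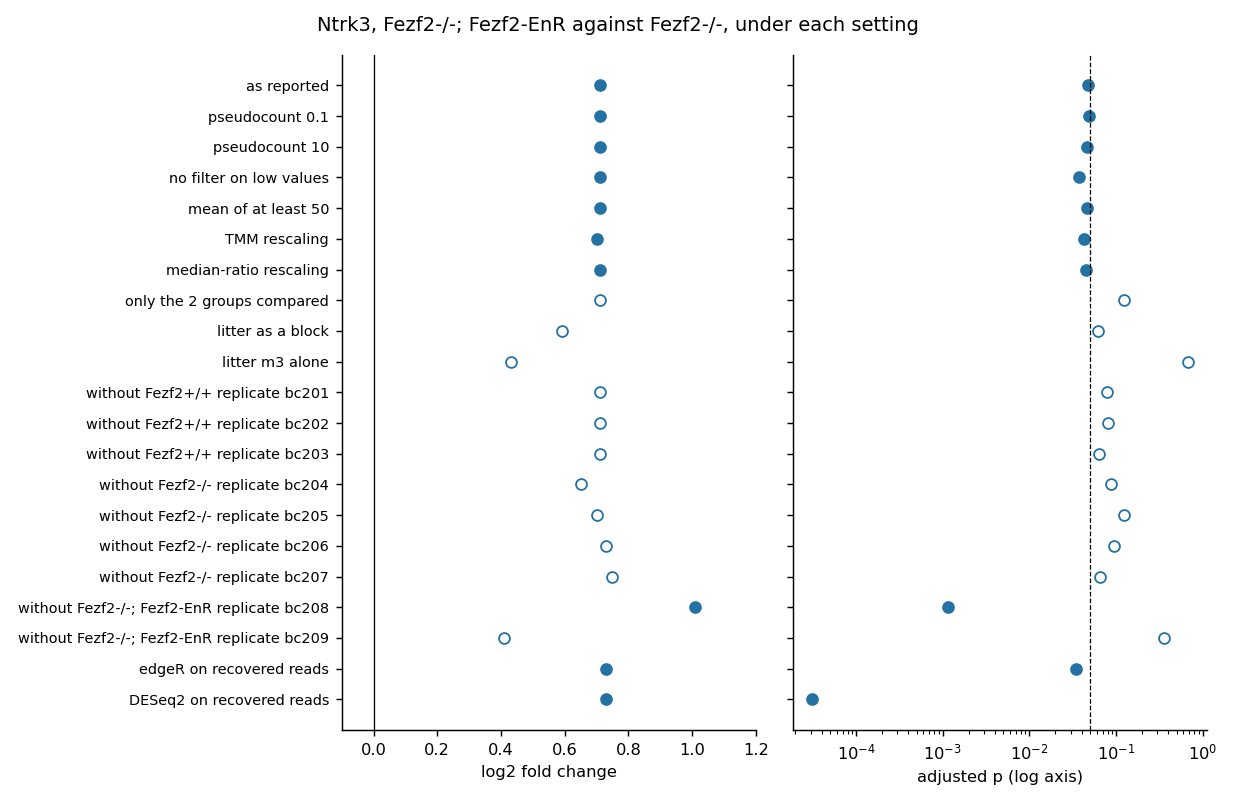
The log2 fold change of Ntrk3 between Fezf2-/-; Fezf2-EnR and Fezf2-/- (left, linear axis) and its adjusted p (right, log axis, dashed line at 0.05) under each way of processing, filled where the call holds. The difference is positive in every row, from 0.41 without bc209 to 1.01 without bc208, and the adjusted p crosses 0.05 in both directions.

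Ntrk2 (ENSMUSG00000055254.15, plus strand of chr13:58806569-59133970) did not differ between the genotypes beyond the spread of the libraries. Its normalized counts ran from 11299 to 12209 in Fezf2+/+, from 10566 to 12910 in Fezf2-/-, and were 11932 and 12898 with Fezf2-EnR, so that all groups overlapped. Loss of Fezf2 gave a log2 fold change of 0.01 with a 95% interval of -0.14 to 0.17 (limma adjusted p = 0.965). With Fezf2-EnR it was 0.06 against Fezf2-/- (95% interval -0.12 to 0.24, limma adjusted p = 0.739). The table gives 1 value per gene, so kinase-bearing and truncated forms of TrkB or TrkC are not separated.

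The log2 ratio of Ntrk2 to Ntrk3 was also taken within each library. It was 1.87, 1.82 and 1.68 in Fezf2+/+, 2.17, 2.22, 2.13 and 2.18 in Fezf2-/-, and 1.77 and 1.28 with Fezf2-EnR. The 4 Fezf2-/- values, between 2.13 and 2.22, were above all others. The mean difference of Fezf2-/- from Fezf2+/+ was 0.39 (p = 0.029 by an exact permutation test, two-sided, and the smallest that 35 arrangements allow), and 0.171 after adjustment over the 6 ratio tests. That of Fezf2-/-; Fezf2-EnR from Fezf2-/- was -0.65 (exact permutation test, p = 0.067, again the smallest possible, with 15 arrangements, and 0.2 after adjustment).

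Sort1 (ENSMUSG00000068747.14, plus strand of chr3:108284082-108361511) did not differ beyond this spread either. Its normalized counts ran from 5052 to 5381 in Fezf2+/+, from 4818 to 5448 in Fezf2-/-, and were 5153 and 5659 with Fezf2-EnR. Loss of Fezf2 gave a log2 fold change of -0.02 (95% interval -0.15 to 0.12, limma adjusted p = 0.945). Adding Fezf2-EnR gave one of 0.06 relative to Fezf2-/- (95% interval -0.09 to 0.22, limma adjusted p = 0.702). Ngfr, its partner at the membrane, differed 6.04-fold between the same libraries. An exon of Gm12523 overlaps Sort1 on the opposite strand, and whether reads were assigned by strand is not given in the sources used here.

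Ntf3, the ligand of TrkC (ENSMUSG00000049107.13, minus strand of chr6:126101412-126166910), was highest in Fezf2-/-. Its normalized counts were 118.28, 94.69 and 119.09 in Fezf2+/+, 190.82, 123.13, 218.93 and 185.22 in Fezf2-/-, and 133.41 and 81.95 in Fezf2-/-; Fezf2-EnR. All Fezf2-/- libraries were above all Fezf2+/+ libraries, though bc205 only narrowly (123.13 against 119.09), and bc208 lay within the Fezf2-/- range. Between Fezf2-/- and Fezf2+/+, 13.0% of all genes did not overlap, in either direction. Fezf2+/+ averaged 111 ± 13.9 (SD, n = 3). The Fezf2-/- mean, 180 ± 40.4 (SD, n = 4), was 162.2% of this level. The difference did not pass the test (log2 fold change 0.67, 95% interval 0.19 to 1.15, limma adjusted p = 0.273), nor did that of Fezf2-/-; Fezf2-EnR from Fezf2-/- (-0.74, 95% interval -1.28 to -0.20, limma adjusted p = 0.188). Without bc208 the latter was -1.09 (limma adjusted p = 0.0489), and without bc209 it was -0.39 (limma adjusted p = 0.791). With Fezf2-EnR the mean, 108 ± 36.4 (SD, n = 2), was 97.3% of the Fezf2+/+ level.

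Bdnf (ENSMUSG00000048482.14, plus strand of chr2:109674700-109727007), the ligand of TrkB and a transcript induced by neuronal activity, was the lowest member in Fezf2+/+. Its normalized counts were 57.45, 48.40 and 44.26 in Fezf2+/+, 61.26, 102.43, 57.34 and 63.13 in Fezf2-/-, and 59.74 and 38.24 in Fezf2-/-; Fezf2-EnR. The groups overlapped, and bc205 stood apart with 102.43. Without Fezf2 the level was 0.47 higher on the log2 scale (95% interval -0.05 to 0.98, limma adjusted p = 0.518), and 0.28 without bc205. With Fezf2-EnR it was -0.52 against Fezf2-/- (95% interval -1.10 to 0.06, limma adjusted p = 0.336), and within litter m3 -0.06. These values rest on 35 to 94 reads per library. An exon of Gm45346 overlaps Bdnf on the opposite strand, and the table lists that gene, under an older name, at no more than 6.26.

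The log2 ratio of Bdnf to Ntf3 did not separate the groups. Wild-type libraries averaged -1.13 ± 0.24 (SD, n = 3), and those with Fezf2-EnR averaged -1.11 ± 0.05 (SD, n = 2). The Fezf2-/- mean was -1.34 ± 0.73 (SD, n = 4). The value of bc205, -0.26, was the highest and that of bc206, from the same litter and genotype, the lowest at -1.91 (exact two-sided permutation test of Fezf2-/- against Fezf2+/+, p = 0.686).

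**Figure D4:**
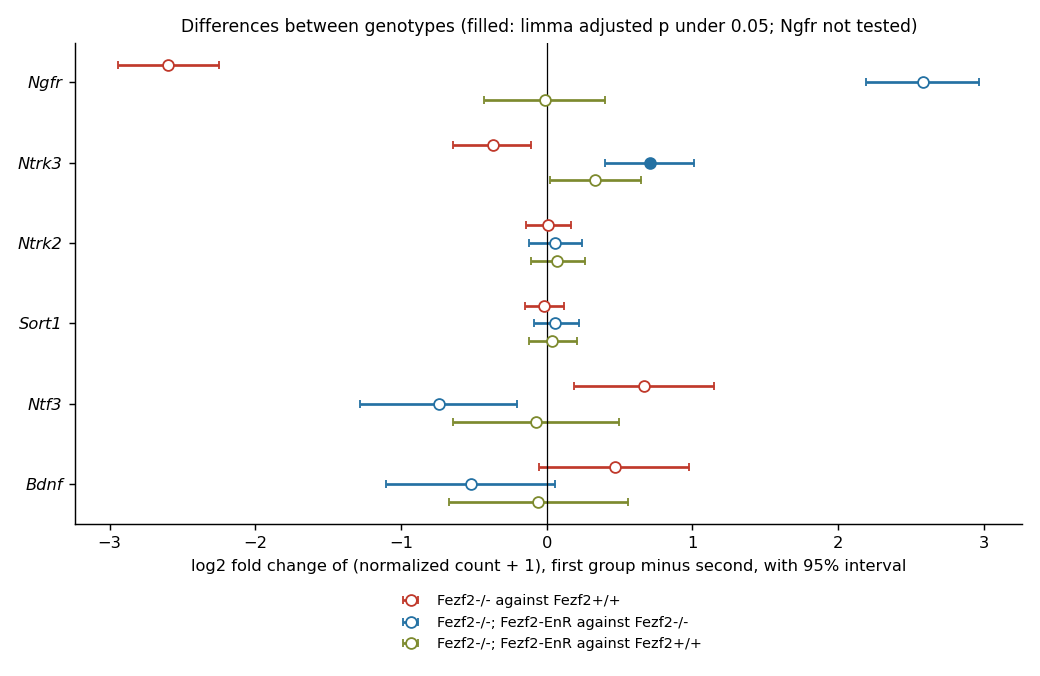
Log2 fold changes of the members (x axis, first group minus second, log2 of normalized count + 1) with 95% intervals, by comparison. The Ngfr differences, -2.60 and 2.58, lie far outside those of the other members, the filled point is Ntrk3 at 0.71, and the intervals of Ntrk2 and Sort1 all lie within -0.15 and 0.26. The Ngfr intervals make no allowance for its choice on this readout and are not a test.

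Ntf5, which encodes NT-4/5, the other ligand of TrkB, was at 2.11 normalized counts or less in all 9 libraries and did not reach the mean of 10 required for the test.

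Per kilobase of exon, the members were put in order within each library. The length used was that of all annotated exons of a gene together, 30170 bases for Ntrk3 and 1714 for Ntf3. It can exceed the length of the transcripts present, and the order and percentiles below depend on it. Sort1 was highest and Ntrk2 next in all 9 libraries, with Fezf2+/+ means of 693 ± 22.7 and 611 ± 23.9 normalized counts per kilobase (SD, n = 3). Ntrk3 (113 ± 3.5) and Ngfr (103 ± 8.6) followed, and their order differed between the Fezf2+/+ libraries, so these neighbours did not differ beyond their spread. Ntf3 (64.6 ± 8.1) and Bdnf (8.0 ± 1.1) came last. In Fezf2-/-, Ngfr at 17.0 ± 2.9 (SD, n = 4) dropped behind Ntf3 in every library, to the lowest level but 1 in 3 libraries and to the lowest in bc205. Ntf3 stood above Ntrk3 in 3 of the 4 Fezf2-/- libraries and in no other library. With Fezf2-EnR both libraries had the order of Fezf2+/+ bc201. Among the 16176 genes with a length, the Fezf2+/+ level per kilobase was at percentile 90.5 for Sort1, 88.8 for Ntrk2, 53.4 for Ntrk3, 51.3 for Ngfr, 40.4 for Ntf3 and 9.6 for Bdnf.

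Over the 9 libraries, the log2 levels of Ngfr ran with those of Ntrk3 (Pearson r = 0.83) and against those of Ntf3 (r = -0.82) and Bdnf (r = -0.69), while Ntrk2 ran with Sort1 (r = 0.85). These are descriptions over 9 points that share genotypes. The genes most like Ntf3 were Ppp1r14c, Oprk1 (the kappa opioid receptor) and Dkk2 (a Wnt antagonist), and those most like Ntrk3 were Clcn5, Wdr48 and Tmem74. Rps4l, Macrod1 and Kcnab2 were most like Bdnf, and Clip3, Slc19a2 and Klf7 most like Ntrk2. Sort1 was followed most closely by Pot1a, RP24-196M24.2 and Dcx.

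The rest of the pathway was examined through lists of ligand processing, receptor partners and signalling. Besides the 6 members, 67 genes of these lists were tested. In limma, edgeR and DESeq2 alike, loss of Fezf2 gave 2 calls among them, 1 higher and 1 lower, or 3.0% against 0.858% of all genes in limma, with a median log2 fold change of 0.05 against 0.00 over all genes. In that comparison 19 of the 67 genes had an unadjusted limma p under 0.05, against 10.8% of all genes. In Fezf2-/-; Fezf2-EnR against Fezf2-/-, limma called 1, which was lower, or 1.5% against 0.766% of all genes, with a median of -0.04. There 20 of the 67 genes had an unadjusted limma p under 0.05, against 16.9% of all genes. In the same comparison edgeR called none, and DESeq2 called 5 (Sorcs1, Dusp6, Spry2, Pcsk5 and Egr1), of which Sorcs1 and Pcsk5 were higher with Fezf2-EnR. Against Fezf2+/+ limma and edgeR called none, where limma called 0.117% of all genes. There 18 of the 67 had an unadjusted limma p under 0.05, against 19.3% of all genes, and DESeq2 called 3 (Dusp6, Creb1 and Frs2). Over all 16197 genes, DESeq2 called 315, 454 and 641 in the 3 comparisons, in the order given here. With limma, none of the 16 partners and adaptors of p75 passed the test in any comparison, nor did the 7 genes of its cleavage by ADAM proteases and gamma-secretase, the 6 proneurotrophin proteases tested, or the 21 Trk adaptors and effectors. Of these 50 genes, 8, 9 and 16 had an unadjusted p under 0.05 in the 3 comparisons, against 10.8%, 16.9% and 19.3% of all genes, edgeR called none, and DESeq2 called Pcsk5 in Fezf2-/-; Fezf2-EnR against Fezf2-/- and Creb1 and Frs2 against Fezf2+/+. Kidins220, a scaffold that binds both p75 and Trk receptors, had a log2 fold change of 0.05 in Fezf2-/-, Lingo1, a co-receptor of p75, of 0.01, and Maged1, which binds its intracellular part, of 0.01. The protease gene Pcsk5 had means of 173, 121 and 184 normalized counts in Fezf2+/+, Fezf2-/- and Fezf2-/-; Fezf2-EnR, without passing the test (limma adjusted p = 0.139 and 0.108).

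Sorcs1, a receptor of the sortilin family, was the gene that fell. Its normalized counts were 1246.99, 1368.75 and 1374.28 in Fezf2+/+, 633.72, 503.41, 770.42 and 861.33 in Fezf2-/-, and 1080.24 and 1112.31 with Fezf2-EnR. The Fezf2-/- mean was 52.0% of the Fezf2+/+ mean (log2 fold change -0.97, standard error 0.15, limma adjusted p = 0.0133), and no libraries overlapped, as for 13.0% of all genes. The call was lost without bc201, bc202 or bc203 (limma adjusted p = 0.0538 to 0.0797). With Fezf2-EnR the level was between the others, at 82.4% of Fezf2+/+, and 0.69 above Fezf2-/- on the log2 scale without passing the test (limma adjusted p = 0.107). Within the same family, Sorcs2 and Sorcs3 had log2 fold changes of 0.45 and 0.38 in Fezf2-/-, which did not pass.

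Among 12 genes known to respond to Trk signalling or neuronal activity, the median log2 fold change was 0.39 for the loss of Fezf2 and -0.49 for the addition of Fezf2-EnR, and these comparisons share the Fezf2-/- libraries. The groups did not overlap for 7 and 9 of the 12, against 13.0% and 24.6% of all genes. Nrn1, which encodes the neurite-promoting protein neuritin, rose in Fezf2-/- from a mean of 175 to 399 normalized counts (log2 fold change 1.16, limma adjusted p = 0.0466). Its call was lost with litter as a block (0.87, limma adjusted p = 0.051) and without any 1 of bc201 to bc205 or bc207, with adjusted p up to 0.245 (without bc202). Dusp6, a phosphatase that acts on ERK, had means of 733 in Fezf2+/+, 833 in Fezf2-/- and 520 with Fezf2-EnR. Its rise in Fezf2-/- was 0.18 on the log2 scale (limma adjusted p = 0.63). With Fezf2-EnR it fell against Fezf2-/- (-0.67, limma adjusted p = 0.0426), to a level 0.49 below Fezf2+/+ (limma adjusted p = 0.134). The call was lost in edgeR (adjusted p = 0.0517) and with litter as a block (-0.54, limma adjusted p = 0.0724). It was also lost without any 1 of bc201, bc202, bc204, bc205, bc206 or bc209. Vgf and Fos had log2 fold changes of 1.02 and 1.18 in Fezf2-/- and of -1.27 and -1.83 with Fezf2-EnR, none of which passed.

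**Figure D5:**
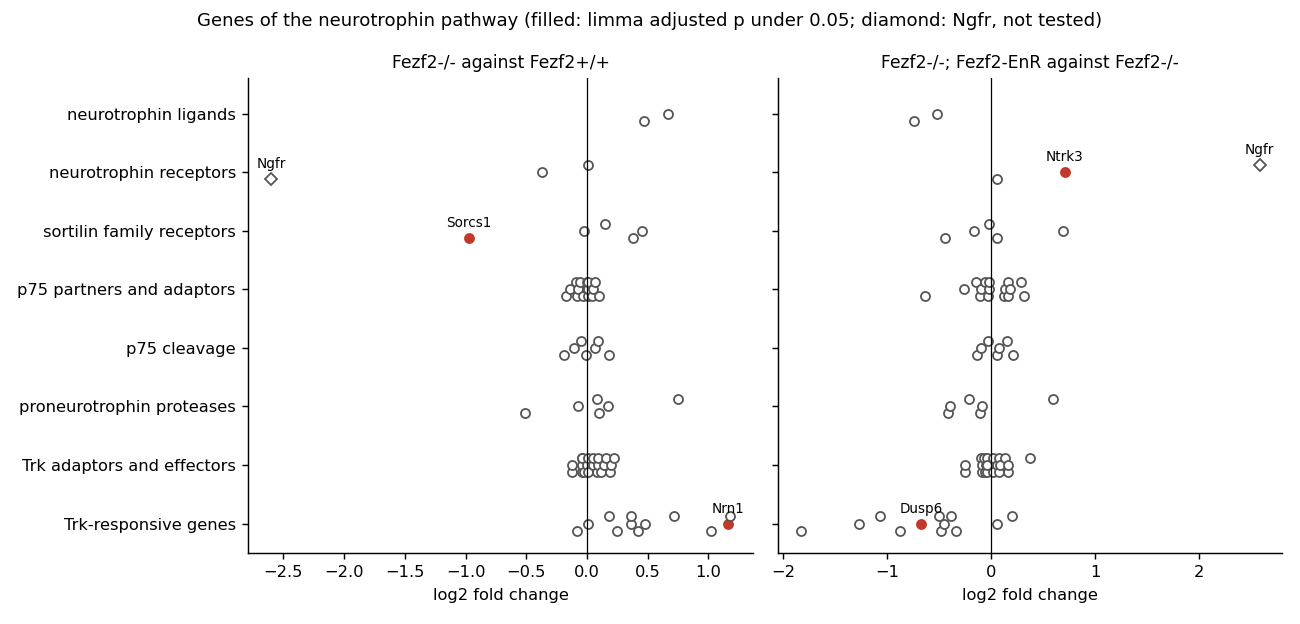
Log2 fold changes (x axis, log2 of normalized count + 1) of the tested genes of the neurotrophin pathway that are reported here, by list, in Fezf2-/- against Fezf2+/+ (left) and Fezf2-/-; Fezf2-EnR against Fezf2-/- (right). Each point is a gene, filled where it passed the test, and Ngfr is the diamond at -2.60 and 2.58. Most partners and effectors lie close to 0, and most Trk-responsive genes lie to the right in the left panel and to the left in the right panel.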

How the data were processed

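The authors counted reads of poly(A) RNA per gene and divided each library by a size factor, and the deposited values are this normalized signal, printed to 2 decimals. The labels' processing notes name STAR, Bowtie and DESeq without versions and the build mm10. The annotation release, the counting tool and the use of strand are not given in the sources used here. Dividing by the value of 1 read gave whole reads (within 0.1 read) for 100.0% of values, hence the depths.

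The main test was limma 3.58.1 in R 4.3.3 (lmFit, then eBayes with trend) on log2(value + 1), for the 16197 genes averaging 10 or more, in 1 fit of all 9 libraries without covariates. Calls were made at a Benjamini-Hochberg adjusted p under 0.05. This scale understates changes of low genes, and with 2 Fezf2-EnR libraries the spread is shared by all groups. P-values measure the spread between mice of few litters.

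The members and gene lists were chosen with earlier results of these data known. Genes named are the members, Fezf2, the other ligands and receptors, pathway genes called in any comparison, the subplate markers and the genes most like each member (10 for Ngfr, 3 for the others, Pearson r). Others, given as examples that did not pass in limma (Kidins220, Lingo1, Maged1, Pcsk5, Spry2, Egr1, Creb1, Frs2, Sorcs2, Sorcs3, Vgf, Fos), and the markers Chat, Slc5a7, Slc18a3, Lhx8, Cdh19 and Lum were picked after their values were seen. Lists were described by counts and medians. Some genes that this rule would name are not reported here. Ratios were compared with an exact permutation test over libraries. Alternatives were other pseudocounts, filters, rescalings, sample sets, litter as a block, each library left out, and edgeR 4.0.16 and DESeq2 1.42.0 on the recovered reads. Annotation and lengths are from GENCODE M21, which held 24595 of 24624 identifiers, and promoter sequence from RefSeq on GRCm38.p6, which matched 4 of 6 members. The lists of striatal, basal forebrain cholinergic, Schwann, pericyte, interneuron, thalamic, Cajal-Retzius, radial glia, oligodendrocyte precursor, endothelial, microglia and red blood cell markers had no gene called by limma or edgeR in any comparison (17, 16 and 17 of 58 genes at an unadjusted p under 0.05, against 10.8%, 16.9% and 19.3% of all genes, and 4, 1 and 2 called by DESeq2), and of the cortical glutamatergic list Emx1 was called lower in Fezf2-/-. DESeq2 called 315, 454 and 641 of all 16197 genes in these comparisons.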

Additional observations from a re-analysis of the deposited data

Results flagged for a closer look

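For Bdnf 1 of the 4 Fezf2-/- libraries lay far from the others, by a rule that chance meets in about 1 of 20 groups. It had 102.43 normalized counts in bc205, against 57.34 to 63.13 in the other 3 libraries.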

How the results depend on the processing

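The Ngfr differences kept their direction for the loss of Fezf2 under all alternatives run (-2.70 to -2.53 with libraries left out), and for the addition of Fezf2-EnR moved to 2.27 in litter m3 alone and from 2.34 (without bc209) to 2.83 (without bc208). Against Fezf2+/+ it went from -0.26 (without bc209) to 0.23 (without bc208).

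For Ntrk3, Fezf2-/-; Fezf2-EnR against Fezf2-/- lost its call with only these groups fitted (0.71, adjusted p = 0.122), with litter as a block (0.59, 0.0625) and in litter m3 alone (0.43, 0.678), and ran from 0.41 to 1.01 (0.357 to 0.00116) with libraries left out. Fezf2-/- against Fezf2+/+ gained a call with only these groups (-0.37, 0.0329) and in litter m1 (-0.32, 0.0354), and ran from -0.41 to -0.32. Fezf2-/-; Fezf2-EnR against Fezf2+/+ ran from 0.03 (without bc209) to 0.64 (without bc208). The ratio of Ntrk2 to Ntrk3, from 0.33 to 0.42 for the loss of Fezf2, cannot reach an exact p of 0.05 with a library left out.

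For Ntf3, the addition of Fezf2-EnR ran from -1.09 (called, without bc208) to -0.39, and against Fezf2+/+ from -0.42 to 0.28. Some small, uncalled differences changed sign. Bdnf in Fezf2-/-; Fezf2-EnR against Fezf2+/+ was 0.10 with litter as a block and -0.37 to 0.26 with libraries left out, and its ratio to Ntf3 -0.12 to 0.11. Sort1 was 0.01 in Fezf2-/- against Fezf2+/+ with litter as a block, -0.04 to 0.02 with libraries left out, -0.01 to 0.13 for the addition of Fezf2-EnR, and -0.02 to 0.11 against Fezf2+/+. Ntrk2 was -0.03 to 0.07 in Fezf2-/- against Fezf2+/+.

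Counts of called genes moved more. For the loss of Fezf2, 139 genes became 221 with only these groups, 233 in litter m1, 315 with DESeq2 (142 with edgeR), 66 to 88 without bc201, bc202, bc203, bc205 or bc206, and 214 and 217 without bc208 or bc209. For the addition of Fezf2-EnR, 124 became 67 with only these groups, 33 in litter m3, 454 with DESeq2 (114 with edgeR), 68, 49, 57 and 21 without bc202, bc205, bc206 or bc209, and 1088 without bc208. Against Fezf2+/+, 19 became 10 with a mean of at least 50, 12 with only these groups, 32 with litter as a block, 641 with DESeq2 (15 with edgeR), 12 and 8 without bc202 or bc209, and 181, 32 and 491 without bc203, bc207 or bc208. Pathway genes called, Ngfr left out, went from 2 to 1 with a mean of at least 50, 4 with only these groups, 5 in litter m1, 0 without bc201, bc202 or bc203, 1 without bc204, bc205 or bc207, and 4 without bc208 or bc209 for the loss of Fezf2. For the addition of Fezf2-EnR they went from 2 to 0 with only these groups and in litter m3, 1 with litter as a block, 1 with edgeR, 6 with DESeq2, 0 without bc201, bc202, bc204, bc205, bc206 or bc209, 1 without bc207, and 12 without bc208, and against Fezf2+/+ from 0 to 3 with DESeq2 and 4 without bc208. Where a library was left out of the Fezf2-EnR group, the other was assumed to vary like the other groups. The causes of these changes were not tested.

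Deviations from the group mean were correlated between libraries of different groups. Within a litter the correlations were 0.02 to 0.23 (median 0.14, 7 pairs). Across litters they were -0.32 to 0.32 (median -0.02, 19 pairs). The ranges overlapped, and the deviations of the 2 Fezf2-EnR libraries mirror each other by construction. These pairs therefore cannot show whether litter had an effect. The labels give no shared replicate numbers, so litter was used as the block. Depth limits Ntf5, with 2 reads or fewer per library.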

Other observations

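Interneuron markers were higher in Fezf2-/- cortex as a sum, though no gene of the list passed the test in limma or edgeR. Of its 7 genes, 6 had an unadjusted limma p under 0.05 in Fezf2-/- against Fezf2+/+, compared with 10.8% of all genes. DESeq2 called 4 of the list (Gad1, Gad2, Dlx2 and Dlx5) and 315 of all 16197 genes. The 7 genes summed to 6201 to 6584 normalized counts in Fezf2+/+, 8055 to 9082 in Fezf2-/-, and 6309 and 7420 with Fezf2-EnR, so the Fezf2-/- libraries lay above all others. The median log2 fold change of the list was 0.47 in Fezf2-/- against Fezf2+/+ and -0.20 in Fezf2-/-; Fezf2-EnR against Fezf2-/-. The genes differed with Fezf2-EnR. Gad1 had means of 1050, 1736 and 1152 in Fezf2+/+, Fezf2-/- and Fezf2-/-; Fezf2-EnR, and Sst of 639, 1152 and 652. Gad2 had 581, 805 and 852, and Dlx5 155, 235 and 247. For Gad2 and Dlx5 both Fezf2-EnR libraries lay above Fezf2+/+, where 34.6% of all genes did not overlap, in either direction. DESeq2 called these 2 genes in that comparison. Oligodendrocyte precursor markers showed a smaller difference, with sums of 4849 to 5148, 5512 to 5780, and 5391 and 5411. Sox10, a factor of that lineage, lay between 265 and 293 in Fezf2+/+, between 334 and 365 in Fezf2-/-, and at 300 and 276 with Fezf2-EnR. These genes were picked after their values were seen.

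Red blood cell markers were low in both Fezf2-EnR libraries, with sums of 4203 and 4554 normalized counts against 5107 to 8883 in the other 7. All 5 genes of the list separated Fezf2-/-; Fezf2-EnR from Fezf2-/-, compared with 24.6% of all genes. None passed the test in limma or edgeR. All 5 had an unadjusted limma p under 0.05, compared with 16.9% of all genes, and DESeq2 called Hbb-bt. In that comparison DESeq2 called 454 of all 16197 genes.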
